A study of Mus musculus with 53 samples.

Results

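The genes described here are 40 genes of mitosis and of the step from G2 into mitosis, taken by symbol from the RNA tables of mouse embryonic fibroblasts. The tables list 43432 genes in all, each of the 40 symbols matched 1 gene in both tables, and all 40 passed the filter on low values in both. RNA was sequenced from wild-type fibroblasts (WT) and from fibroblasts labelled ANP32E-KO (KO), after the gene of a histone chaperone known for removing the variant histone H2A.Z from chromatin. A first table, in FPKM (fragments scaled to gene length and library size), holds 10 libraries: 2 of WT and 2 of KO cells given DMSO, the solvent, and 3 of WT and 3 of KO cells given decitabine (DAC), a nucleoside that traps DNA methyltransferases and lowers DNA methylation. A second table, in RPKM (reads scaled to gene length and library size), holds 12 libraries, 3 in each of 4 groups: WT and KO cells given the siRNA labelled NT, and WT and KO cells given an siRNA labelled H2AZ. The labels give no dose, time, age or strain and do not say how many clones or embryos the KO cells came from. They call most of the libraries biological replicates but name no separate cultures or animals, so that the tests below measure the spread between these libraries.

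Entry into mitosis is driven by cyclin B bound to the kinase Cdk1, which the phosphatase Cdc25c and the kinase Plk1 help to switch on. Kinetochores then attach chromosomes to the spindle, the spindle checkpoint holds back the anaphase ubiquitin ligase until all are attached, and the chromosomal passenger complex and the central spindle guide the separation of the daughter cells. Most of these genes are transcribed in G2 and M by the MuvB complex with B-Myb and FoxM1. The promoter sequences used are known as the cell cycle homology region and the CCAAT box. The RNA level of these genes in a culture follows the share of cells that are cycling. In bulk RNA, fewer cells in G2 or M and less RNA per cell cannot be told apart.

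Of the 40 genes, 34 have an entry in the RefSeq table of start sites (GRCm38.p6), with 250 bases before and 50 after the start. A gene was counted as a match if any of its windows held the letters. TTTGAA, on either strand, was in 26 of the 34 members (76.5%) and in 20.2% of the 27025 genes of the table with a window. CCAAT was in 27 of 34 (79.4%) against 41.1%. TTTGAA or TTCGAA together with CCAAT in the same window was found in 67.6% of these members and in 8.61% of all genes with a window. Of the E2F letters, TTTCGCG was in 2 members (5.88%, against 0.969% of all genes) and TTTGGCG in 0 (against 1.77%). TTTCCCG was in 2 members (5.88%, against 3.92%). The stretches of the genes that the values below turn on are shown from 150 bases before to 30 after the start, on the gene's own strand, with TTTGAA or TTCGAA and the letters CCAAT in capitals (ATTGG is CCAAT on the other strand). They are Ccnb1 at chr13:100786457-100786636 (minus strand), Cdk1 at chr10:69352883-69353062 (minus), Plk1 at chr7:122159285-122159464 (plus), Gtse1, the member with the largest rise, at chr15:85859557-85859736 (plus) and Kif20b, the member with the largest fall, at chr19:34922208-34922387 (plus).
Ccnb1: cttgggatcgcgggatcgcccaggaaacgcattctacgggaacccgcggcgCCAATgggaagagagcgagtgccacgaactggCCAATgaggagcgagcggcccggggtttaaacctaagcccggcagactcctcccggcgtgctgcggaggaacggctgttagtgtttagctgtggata
Cdk1: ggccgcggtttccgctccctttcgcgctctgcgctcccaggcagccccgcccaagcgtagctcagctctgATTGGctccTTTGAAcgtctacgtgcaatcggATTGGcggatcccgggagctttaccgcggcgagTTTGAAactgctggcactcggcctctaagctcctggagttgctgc
Plk1: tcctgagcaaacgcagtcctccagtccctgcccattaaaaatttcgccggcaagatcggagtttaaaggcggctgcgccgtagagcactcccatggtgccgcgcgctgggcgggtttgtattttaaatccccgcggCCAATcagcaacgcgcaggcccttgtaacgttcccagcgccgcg
Gtse1: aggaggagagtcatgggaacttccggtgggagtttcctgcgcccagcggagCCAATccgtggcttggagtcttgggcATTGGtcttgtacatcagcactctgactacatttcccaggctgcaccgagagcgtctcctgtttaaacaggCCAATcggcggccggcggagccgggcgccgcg
Kif20b: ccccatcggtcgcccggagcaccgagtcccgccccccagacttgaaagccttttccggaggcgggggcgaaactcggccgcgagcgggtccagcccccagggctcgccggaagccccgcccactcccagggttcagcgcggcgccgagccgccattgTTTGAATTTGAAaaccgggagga
Cdk1 holds both kinds of letters, Ccnb1, Plk1 and Gtse1 hold CCAAT alone in these stretches, and Kif20b holds adjacent copies of TTTGAA just past its start. A match describes the letters in these windows and says nothing of which factor was bound.

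The libraries of the DAC table held between 27503472 and 36910532 reads and those of the siRNA table between 31928320 and 47172427, as recovered from the values, and the members had 389 (Nek2) to 28330 (Top2a) reads in a library. Anp32e RNA averaged 14.5 FPKM in WT DMSO and 5.09 in KO DMSO, and 19.3 and 5.07 RPKM with NT siRNA, so it was lower but not absent in the KO libraries. H2afz, which encodes H2A.Z, fell with H2AZ siRNA from 202 to 17.2 RPKM in WT and from 194 to 27.9 in KO. H2afv, which also encodes H2A.Z, was called lower with H2AZ siRNA in both genotypes (log2 change −2.82 in WT and −2.57 in KO). It was called lower with DAC too (−0.50 in WT and −0.67 in KO). The WT and KO cells differ by more than the targeted gene. Y-linked genes summed to at most 0.164 FPKM in any WT library and to at least 9.25 FPKM or RPKM in any KO library, so the sex of the cells and the genotype cannot be told apart. In the DAC table the libraries WT DAC 3 and KO DAC 1 stood apart from the rest of their groups, and in the siRNA table WT NT 1 and KO NT 1 did. The members called without both of a table's such libraries are counted in each comparison. For those fits the share of all genes called was not counted, so a larger count there is not particular to the members.

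Per-gene means over the 10 libraries of the DAC table ran from 4.61 FPKM for Nek2, a centrosome kinase, to 67.3 FPKM for Mki67, the Ki-67 protein that coats mitotic chromosomes, with a median of 17.97. In the siRNA table they ran from 4.83 RPKM for Ttk, the checkpoint kinase Mps1, to 68.8 RPKM for Cdc20, an activator of the anaphase ubiquitin ligase, with a median of 22.1. Levels are set side by side within a table only, since the tables were scaled separately.

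Taken as a share of all recovered reads, the 40 genes made up 0.369% and 0.390% of the WT DMSO libraries and 0.318% and 0.320% of the KO DMSO libraries. With DAC the share was 0.419% to 0.439% in WT and 0.451% to 0.468% in KO. The 4 groups of the DAC table did not overlap: KO DMSO was lowest, then WT DMSO, WT DAC and KO DAC. In the siRNA table the share was 0.498% to 0.563% in WT NT, 0.460% to 0.498% in WT H2AZ, 0.373% to 0.415% in KO NT and 0.398% to 0.404% in KO H2AZ, and every KO library lay below every WT library. Mki67 had the most reads of any member in a library of the DAC table (27106) and Top2a in the siRNA table (28330).

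**Figure D1:**
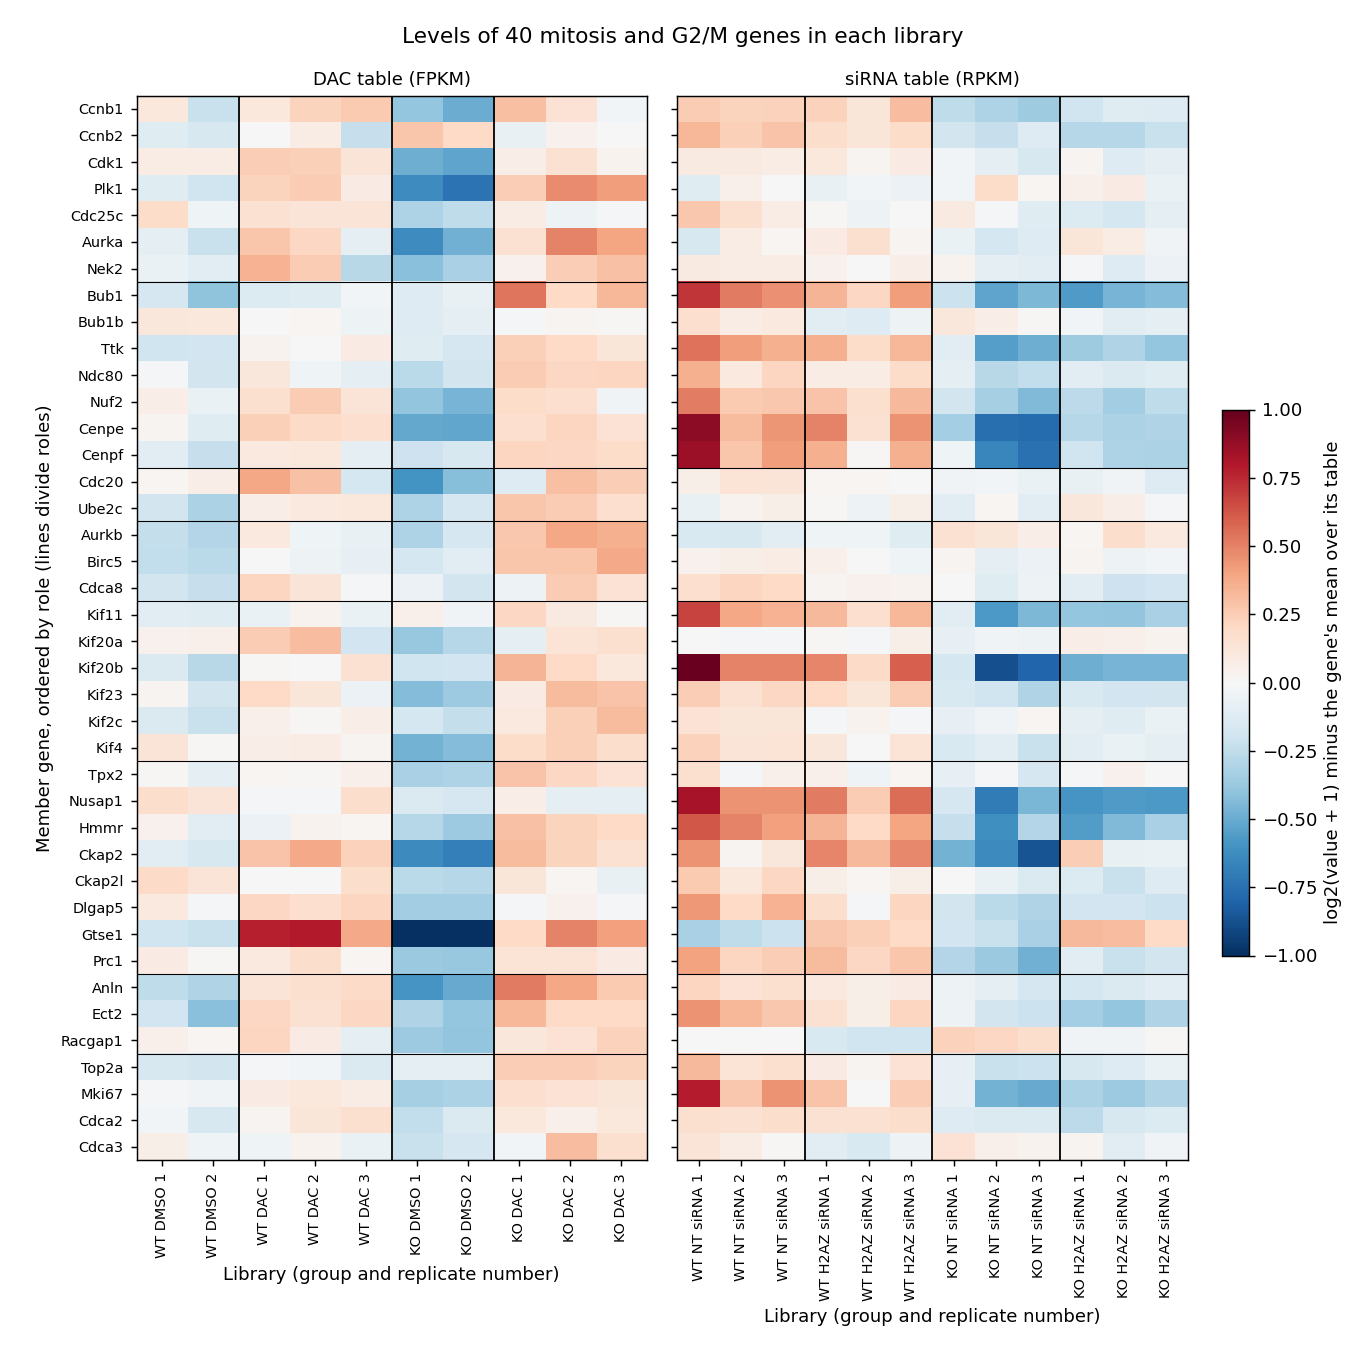
Level of each of the 40 members (vertical axis, by role) in each of the 22 libraries (horizontal axis, in the groups of the DAC table and the siRNA table), as log2(value + 1) minus the gene's mean in that table, with the colour scale from −1 to 1. Both KO DMSO libraries are the lowest columns for 26 of 40 members, and the 6 KO libraries of the siRNA table lie below the 6 WT libraries for 24.

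The heat map shows that the order of groups is shared by most but not all members. KO DMSO had the lowest mean of the DAC table for 30 of 40 members and WT DMSO for the other 10. KO DAC had the highest mean for 25 members, WT DAC for 11, WT DMSO for 3 (Bub1b, Nusap1 and Ckap2l) and KO DMSO for 1, Ccnb2. Both KO DMSO libraries lay under the 8 other libraries in 26 of 40 members, where 19.5% of all genes compared did so, and above them in 1 member, Ccnb2, where 18% of all genes did. In the siRNA table WT NT had the highest mean for 31 members, and the lowest mean was in KO NT for 20 and in KO H2AZ for 14. All 6 KO libraries lay under all 6 WT libraries in 24 members (29.1% of all genes compared) and above them in 1, Aurkb (14.3%).

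The first comparison asks how the KO cells differ from WT cells in solvent alone. Of the 40 members, 20 were lower in KO DMSO, 1 was higher and 19 passed in neither direction, where 22.9% of the 16434 genes tested were lower and 19.6% higher (limma on log2(FPKM + 1), Benjamini-Hochberg adjusted p under 0.05). The median log2 difference of the members was −0.29 and that of all genes tested was −0.04. The calls were unevenly spread over the roles: all 8 spindle assembly and microtubule-binding genes and 4 of 7 mitotic entry genes fell, but 0 of the 3 genes of the chromosomal passenger complex and 1 of 6 kinesins did. Of the rest, 3 of 7 checkpoint and kinetochore genes, 1 of 2 co-factors of the anaphase ubiquitin ligase, 2 of 3 cytokinesis genes and 1 of 4 chromosome genes fell. Cdca3, a mitotic entry factor, is counted here and below with the chromosome genes and not with the entry genes.

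Among the entry genes, Cdk1, the kinase of mitosis, had 28.8 and 28.7 FPKM in WT DMSO and 19.1 and 18.6 in KO DMSO. Both KO libraries were below both WT libraries, and Cdk1 fell by 0.58 ± 0.06 (log2, SE, 2 libraries per group, limma adjusted p = 7.9e-05). Plk1, the polo-like kinase, had 31.7 and 30 FPKM in WT and 21.9 and 20.3 in KO, again without overlap (−0.53 ± 0.09, limma adjusted p = 0.00157). Ccnb1, the main mitotic cyclin, had 30.9 and 24.3 FPKM in WT and 21.6 and 20.02 in KO. The KO values were again the lower ones, but the WT libraries were far apart, and the fall of Ccnb1 (−0.38 ± 0.13, limma adjusted p = 0.0433) was lost when any of 6 of the 10 libraries was left out, with values from −0.55 to −0.21. Ccnb2, the other B-type cyclin, went the other way: 32.9 and 32.1 FPKM in WT and 43.9 and 41.5 in KO. It was the only member called higher (0.38 ± 0.10, limma adjusted p = 0.0112), and the call was lost without WT DMSO 2 (0.36, limma adjusted p = 0.0607) or KO DMSO 1 (0.34, limma adjusted p = 0.074). Cdc25c, the phosphatase that activates Cdk1, fell by 0.35 ± 0.08, while Aurka, the centrosomal Aurora kinase (−0.39 ± 0.14, limma adjusted p = 0.0546), and Nek2 (−0.28 ± 0.19) did not pass.

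The largest fall was in Gtse1, a microtubule-binding protein of G2 that is also known to restrain p53. Its levels were 22.4 and 22.0 FPKM in WT DMSO and 9.47 and 10.04 in KO DMSO. The groups were well apart, with a fall of 1.11 ± 0.14 on the log2 scale (limma adjusted p = 0.00032), the only member past 2-fold. Cdc20 had 27.4 and 28.3 FPKM in WT and 17.5 and 19.9 in KO. Its fall (−0.55 ± 0.20, limma adjusted p = 0.0493) was nominally the third in size but was lost when any of 7 libraries was left out, with values from −0.64 to −0.47. Of the other spindle genes, Ckap2, which stabilises microtubules, fell by 0.52 ± 0.07, Ckap2l by 0.43 ± 0.08, Prc1, which bundles the central spindle, by 0.42 ± 0.06, Dlgap5 by 0.39 ± 0.07, Nusap1 by 0.31 ± 0.08, Hmmr by 0.30 ± 0.07 and Tpx2, the activator of Aurora A, by 0.28 ± 0.06. All but Nusap1 and Hmmr kept their call whichever of the 10 libraries was left out.

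Mki67, which is read in many tissues as a sign of cycling cells, had 66.4 and 65.3 FPKM in WT DMSO and 52.8 and 53.5 in KO DMSO. The difference was small but far larger than the spread (−0.30 ± 0.04, limma adjusted p = 0.00059). Kinetochore genes that fell were Cenpe, the kinesin of chromosome alignment (−0.47 ± 0.06), Nuf2 of the Ndc80 complex (−0.43 ± 0.09) and Bub1b, the checkpoint protein BubR1 (−0.23 ± 0.05, lost without KO DMSO 1 at limma adjusted p = 0.0533), and among the kinesins Kif4, an X-linked chromosome motor (−0.52 ± 0.06). Racgap1, of the central spindle, fell by 0.41 ± 0.09 and Anln, the scaffold of the cleavage furrow, by 0.27 ± 0.08. Top2a, the topoisomerase that untangles sister chromatids, had 27.4 and 26.9 FPKM in WT and 28.7 and 28.8 in KO (0.08 ± 0.06, limma adjusted p = 0.286). Aurkb, the Aurora kinase of the passenger complex, had 15.04 and 14.4 FPKM in WT and 14.3 and 15.8 in KO, which overlapped (0.03 ± 0.08, limma adjusted p = 0.809). Its partners Birc5 (survivin, 0.12 ± 0.06) and Cdca8 (borealin, 0.09 ± 0.12) did not pass either, nor did Bub1, Ttk, Ndc80, Cenpf, Ube2c, Kif11, Kif20a, Kif20b, Kif23, Kif2c, Ect2, Cdca2 and Cdca3.

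In all, 13 of the 21 calls in DMSO, each of them a fall, were kept whichever library was left out, and without WT DAC 3 and KO DAC 1, 25 members were called lower and 1 higher. With 2 libraries per group the fit borrows its spread from all 4 groups of the table. Mesothelial markers were also high in the KO DMSO libraries: 10 of them summed to 1031 and 1063 FPKM there, against 10.1 and 12.1 in WT DMSO, 43.0 to 57.0 in WT DAC and 122 to 143 in KO DAC. Upk3b, a defining mesothelial gene, was at 372 and 396 FPKM in KO DMSO and at 0.0556 and 0.108 in WT DMSO, where Gpm6a and Lrrn4 were at 0. Of the 10 markers, 8 were called higher in KO DMSO and 0 lower. The keratin Krt19, at 1.96 and 1.98 FPKM in KO DMSO and 2.31 and 3.13 in WT DMSO, and Krt8, under 0.3 FPKM in both groups, were not. The 10 fibroblast markers summed to 3563 and 3685 FPKM in WT DMSO and to 2078 and 2130 in KO DMSO. Of these, 6 were called lower in KO DMSO and 1, Thy1, higher. The part of these differences in the lower mitotic RNA of KO DMSO was not tested.

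**Figure D2:**
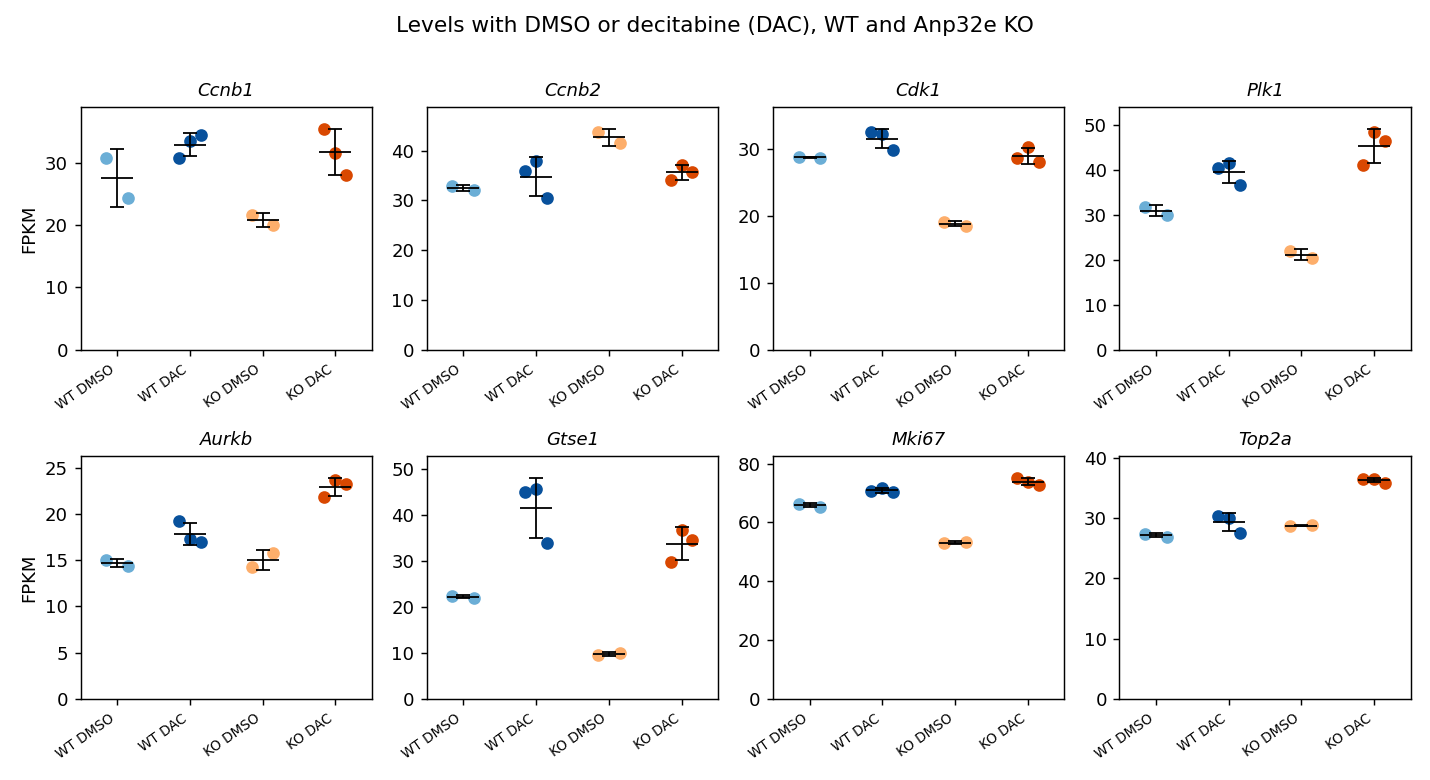
Level in FPKM (vertical axes, linear, from 0) of Ccnb1, Ccnb2, Cdk1, Plk1, Aurkb, Gtse1, Mki67 and Top2a in each library of the DAC table, by group (horizontal axes), with lines at the group mean and bars for the SD. KO DMSO is lowest for Ccnb1, Cdk1, Plk1, Gtse1 and Mki67 and highest for Ccnb2, and KO DAC is level with or above WT DAC for all but Ccnb1, Cdk1 and Gtse1.

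The next comparison is of decitabine with DMSO in WT cells. DAC raised 12 of the 40 members and lowered 0, where 14.5% of all genes tested rose and 13.8% fell (limma, adjusted p under 0.05), and the median log2 change of the members was 0.17 beside −0.01 for all genes. Gtse1 had 22.4 and 22.0 FPKM in WT DMSO and 44.9, 45.5 and 33.9 in WT DAC. Every DAC library was above both DMSO libraries, WT DAC 3 being the lowest of them, and the rise of 0.86 ± 0.13 (limma adjusted p = 0.0016) was the largest of the members. Ect2, the exchange factor that activates RhoA at the cleavage furrow, rose from 20.2 and 17.1 FPKM to 26.9, 25.9 and 27.0 (0.50 ± 0.08, limma adjusted p = 0.00165). Anln rose from 42.8 and 41.5 FPKM to 56.1, 57.6 and 58.8 (0.44 ± 0.07, limma adjusted p = 0.00257), and Ckap2 by 0.43 ± 0.06. The groups did not overlap for any of these 4 genes, and they are the 4 of the 12 calls that were kept whichever of the 10 libraries was left out.

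The other 8 rises in WT were smaller and less stable. Plk1 had 40.4, 41.5 and 36.7 FPKM with DAC, all above the 31.7 and 30 with DMSO (0.35 ± 0.08, limma adjusted p = 0.0138), and its call was lost without WT DMSO 2 (0.31, limma adjusted p = 0.109). Aurkb had 19.2, 17.3 and 17.0 FPKM with DAC against 15.04 and 14.4 (0.26 ± 0.07, limma adjusted p = 0.0267), a call lost without WT DMSO 1, WT DMSO 2 or WT DAC 1. Ube2c, the conjugating enzyme of the anaphase ubiquitin ligase, rose by 0.34 ± 0.06, Kif20b by 0.27 ± 0.08, Cenpe by 0.25 ± 0.06, Ttk by 0.24 ± 0.06, Kif2c, a microtubule depolymerase, by 0.22 ± 0.07 and Birc5 by 0.21 ± 0.06. The values of Cdk1 (32.5, 32.2 and 29.9 FPKM with DAC, 0.13 ± 0.06), Ccnb1 (30.9, 33.5 and 34.4, 0.26 ± 0.12), Mki67 (70.6, 71.8 and 70.4, 0.10 ± 0.04) and Top2a (30.4, 30.1 and 27.6, 0.11 ± 0.05) did not pass. The count moved with the libraries used: 7 members passed without WT DMSO 1 and 4 without WT DMSO 2. Without WT DAC 3 and KO DAC 1, the 2 libraries that stood apart, 25 passed, 23 of them higher and 2 lower. How many of all genes passed in that fit was not counted.

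In KO cells the same comparison reached nearly the whole set. DAC raised 35 of the 40 members, lowered 1 and left 4 that did not pass, where 23.7% of all genes tested rose and 21.6% fell. The median log2 change was 0.47 beside 0.01 for all genes tested (limma, 2 DMSO and 3 DAC libraries). By role, all 7 checkpoint and kinetochore genes, both co-factors of the anaphase ubiquitin ligase, all 3 cytokinesis genes and all 4 chromosome genes rose, with 6 of 7 entry genes, 7 of 8 spindle genes, 4 of 6 kinesins and 2 of 3 passenger genes. Each of the 12 members that rose in WT also rose in KO, so they are 12 of 12 in the first list and 12 of 35 in the second. Without WT DAC 3 and KO DAC 1, 37 were called higher and 1 lower.

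Gtse1 led here too, with 9.47 and 10.04 FPKM in KO DMSO and 29.7, 36.7 and 34.6 in KO DAC. All 3 DAC libraries were far above both DMSO libraries, a rise of 1.68 ± 0.13 (limma adjusted p = 1.4e-05). Plk1 had 21.9 and 20.3 FPKM with DMSO and 41.1, 48.3 and 46.4 with DAC (1.06 ± 0.08, limma adjusted p = 1.3e-05). Anln had 33.8 and 36.0 FPKM with DMSO and 74.2, 67.5 and 61.9 with DAC (0.94 ± 0.07, limma adjusted p = 1.5e-05). None of the 3 genes overlapped between groups. Aurka rose by 0.90 ± 0.13 and Ckap2 by 0.89 ± 0.06, while Cenpe, the next, rose by 0.69 ± 0.06.

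Cdk1 rose from 19.1 and 18.6 FPKM to 28.6, 30.4 and 28.0, a range that holds both WT DMSO libraries (0.60 ± 0.06, limma adjusted p = 4.1e-05). Ccnb1 rose from 21.6 and 20.02 FPKM to 35.5, 31.7 and 28.1 (0.58 ± 0.12, limma adjusted p = 0.00399), Aurkb from 14.3 and 15.8 to 21.8, 23.7 and 23.2 (0.58 ± 0.07, limma adjusted p = 0.00024), and Mki67 from 52.8 and 53.5 to 75.1, 73.8 and 72.9 (0.47 ± 0.04, limma adjusted p = 2.6e-05). Top2a had 28.7 and 28.8 FPKM with DMSO and 36.6, 36.5 and 35.9 with DAC (0.33 ± 0.05, limma adjusted p = 0.0009). In each of these 5 genes the lowest DAC library was above the highest DMSO library. Ccnb2 was again the exception: it had 43.9 and 41.5 FPKM with DMSO and 34.0, 37.1 and 35.8 with DAC, a fall of 0.25 ± 0.09 (limma adjusted p = 0.0414) that was lost when any of 8 libraries was left out. The members that did not pass were Cdca8 (0.24 ± 0.10), Kif11, the motor of spindle bipolarity (0.10 ± 0.07), Kif20a (0.40 ± 0.14) and Nusap1 (0.11 ± 0.08). Of the 36 calls, 27 were kept whichever library was left out, all of them rises. The KO DMSO libraries serve both in this comparison and in that of KO with WT in DMSO, so the values of the 2 comparisons are not independent.

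**Figure D3:**
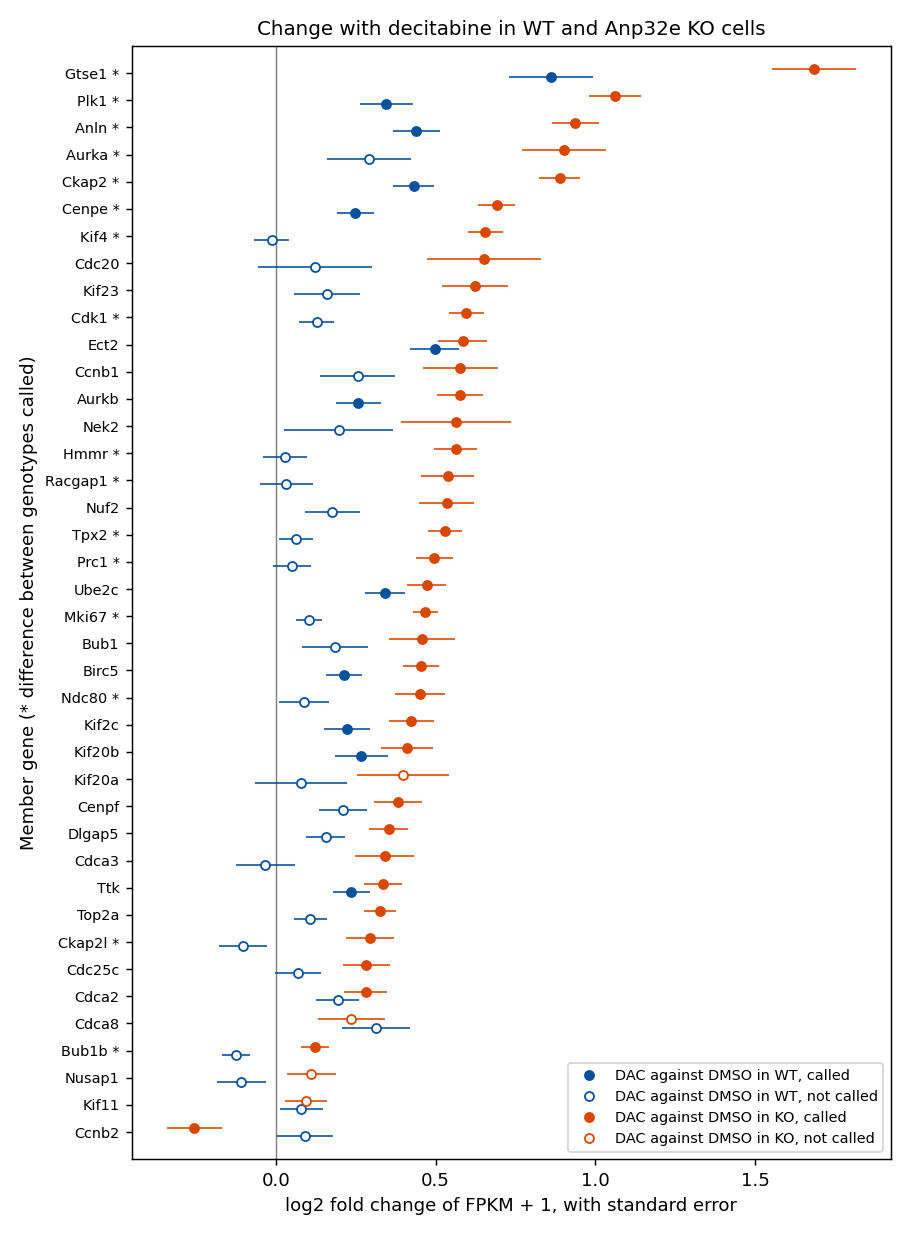
Log2 fold change of DAC against DMSO with its SE (horizontal axis) for each of the 40 members (vertical axis), in WT and in KO, with filled points where limma called the change and an asterisk where the difference between genotypes was called. The KO points lie to the right for most genes, with Gtse1 at 1.68 in KO and 0.86 in WT, and 16 genes carry an asterisk.

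Whether the response to DAC differed between genotypes was tested as an interaction. It was called for 16 of the 40 members, all with the more positive change in KO, where 12.4% of all genes tested were called in that direction and 11.7% in the other (limma, adjusted p under 0.05). The median was 0.34 for the members and 0.04 for all genes. Spindle assembly genes made up 6 of the 16, and the largest differences were in Gtse1 (0.82 ± 0.18, limma adjusted p = 0.0126), Plk1 (0.72 ± 0.12, limma adjusted p = 0.00245) and Kif4 (0.67 ± 0.08, limma adjusted p = 0.00041). Kif4 had 12.1 and 11.1 FPKM with DMSO and 11.6, 11.7 and 11.2 with DAC in WT cells, and 7.66 and 7.88 with DMSO and 12.6, 13.2 and 12.6 with DAC in KO cells, so the KO DMSO libraries were the lowest and the KO DAC libraries the highest. Cdk1 (0.47 ± 0.08, limma adjusted p = 0.00287) and Mki67 (0.36 ± 0.06, limma adjusted p = 0.002) passed. Top2a (0.22 ± 0.07, limma adjusted p = 0.059), Aurkb (0.32 ± 0.10, limma adjusted p = 0.0527) and Ccnb1 (0.32 ± 0.17, limma adjusted p = 0.21) did not. Without WT DAC 3 and KO DAC 1, 24 members passed, 23 higher and 1 lower. Without KO DMSO 1, 9 members passed, and Gtse1 was among those lost (0.79, limma adjusted p = 0.0559). The 9 genes kept whichever library was left out were Cdk1, Plk1, Cenpe, Kif4, Tpx2, Hmmr, Ckap2, Prc1 and Mki67.

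With DAC in both genotypes, 8 of the 40 members were higher in KO DAC than in WT DAC, 1 was lower and 31 passed in neither direction, where 11.1% of all genes tested were higher and 11.6% lower. After centring each library on the median of all genes, 8 members were higher and 0 lower, beside 11.5% and 11.3% of all genes, with medians before centring of 0.09 for the members and −0.001 for all genes. Bub1, the checkpoint kinase, had 11.4, 11.6 and 12.4 FPKM in WT DAC and 18.8, 14.8 and 16.2 in KO DAC (0.45 ± 0.09, limma adjusted p = 0.00926). Birc5 had 11, 10.6 and 10.3 FPKM in WT and 13.5, 13.6 and 14.6 in KO (0.36 ± 0.05, limma adjusted p = 0.00157), and its partner Aurkb 19.2, 17.3 and 17.0 in WT and 21.8, 23.7 and 23.2 in KO (0.34 ± 0.06, limma adjusted p = 0.0058). Top2a had 30.4, 30.1 and 27.6 FPKM in WT and 36.6, 36.5 and 35.9 in KO (0.30 ± 0.04, limma adjusted p = 0.00217). In these 4 genes every KO library was above every WT library, and they are the calls kept whichever library was left out.

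Hmmr, Anln, Ndc80 and Tpx2 were also called higher, by 0.19 to 0.24, and Dlgap5, a spindle protein that guides chromosomes, was the 1 member called lower (6.69, 6.50 and 6.71 FPKM in WT, 5.61, 5.87 and 5.59 in KO, −0.19 ± 0.05, limma adjusted p = 0.0368). The Dlgap5 libraries did not overlap, but its call was lost when any of 8 libraries was left out. Cdk1 (−0.12 ± 0.05), Plk1 (0.19 ± 0.07), Ccnb1 (−0.06 ± 0.11) and Mki67 (0.06 ± 0.04) did not pass. The count was 5 without WT DAC 1 and 4 without WT DAC 2 or KO DAC 2, and leaving out the 2 libraries that stood apart gave 9 members, 8 higher and 1 lower, of which 5 were among the 9 found with all libraries. No test of whether the levels are equal in the 2 genotypes was made.

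The siRNA libraries give a second comparison of KO with WT, in cells given NT siRNA. Here 30 of the 40 members were lower in KO, 2 were higher and 8 passed in neither direction. Lower calls were common in this table: 40.4% of the 12668 genes tested were lower and 23.7% higher, with a median of −0.10 for all genes and −0.31 for the members (limma on log2(RPKM + 1), 3 libraries per group). By role, 5 of 7 entry genes, 6 of 7 checkpoint and kinetochore genes, 5 of 6 kinesins, 7 of 8 spindle genes, 2 of 3 cytokinesis genes, 3 of 4 chromosome genes, 1 of 3 passenger genes and 1 of 2 co-factors of the anaphase ubiquitin ligase fell. After centring each library on the median of all genes, 24 members were lower and 3 higher, where 32.6% of all genes tested were lower and 31.8% higher. Without WT NT 1 and KO NT 1, the 2 libraries that stood apart, 31 were lower and 2 higher.

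The largest fall was in Kif20b, a kinesin of late cytokinesis, which had 20.5, 14.3 and 14.3 RPKM in WT NT and 8.62, 4.91 and 5.25 in KO NT. Every KO library was below every WT library, and WT NT 1 and KO NT 1 were each the highest of their group (−1.28 ± 0.18, limma adjusted p = 9.4e-05). Cenpe had 27.2, 17.9 and 19.6 RPKM in WT and 10.99, 7.996 and 7.92 in KO (−1.17 ± 0.15, limma adjusted p = 4.6e-05). Nusap1, a microtubule-binding protein of the spindle, had 21.6, 16.4 and 16.5 RPKM in WT and 10.4, 6.88 and 8.33 in KO (−1.01 ± 0.14, limma adjusted p = 5.9e-05). Neither gene overlapped between the groups, and the same library of each group was highest. Cenpf, a large kinetochore protein, fell by 1.00 ± 0.18 and Bub1 by 0.96 ± 0.09. Leaving out any 1 library kept all 5 calls.

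**Figure D4:**
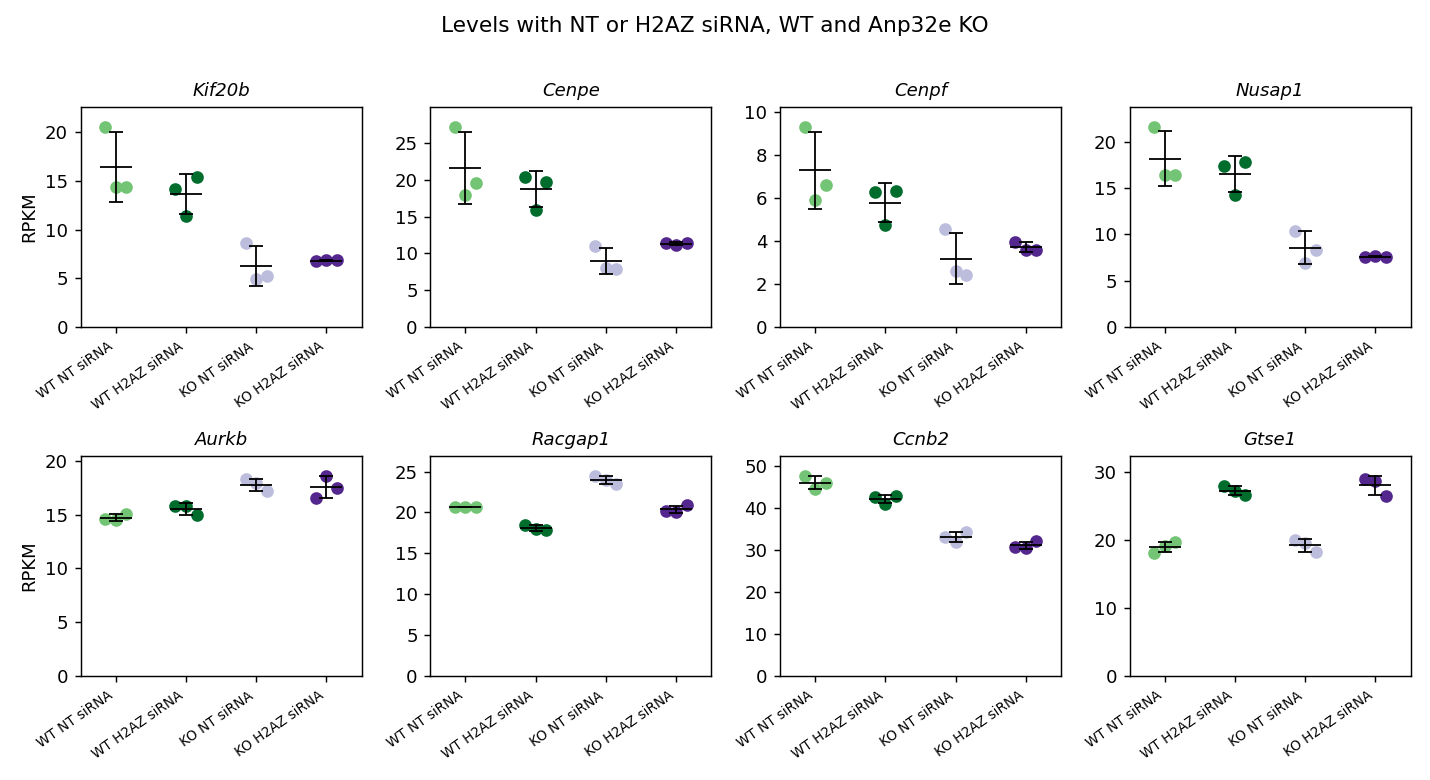
Level in RPKM (vertical axes, linear, from 0) of Kif20b, Cenpe, Cenpf, Nusap1, Aurkb, Racgap1, Ccnb2 and Gtse1 in each library of the siRNA table, by group (horizontal axes), with lines at the group mean and bars for the SD. KO libraries are below WT libraries for Kif20b, Cenpe, Cenpf, Nusap1 and Ccnb2 and above them for Aurkb, and Gtse1 is higher with H2AZ siRNA in both genotypes.

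Mki67 had 57.7, 40.05 and 45.4 RPKM in WT NT and 31.1, 23.6 and 23.1 in KO NT, without overlap (−0.85 ± 0.14, limma adjusted p = 0.00021). Ccnb1 had 46.1, 45.1 and 45.5 RPKM in WT and 32.2, 31.1 and 29.9 in KO (−0.54 ± 0.05, limma adjusted p = 4.2e-06), and here the fall was larger than its spread by a wide margin. Ccnb2, higher in KO in DMSO, was lower in KO with NT siRNA: 47.7, 44.6 and 46.0 RPKM against 33.1, 32.0 and 34.4 (−0.46 ± 0.04, limma adjusted p = 3.8e-06). Top2a fell from 70.9, 62.1 and 63.0 to 53.0, 48.1 and 48.3 RPKM (−0.38 ± 0.06, limma adjusted p = 0.00018), and Cdk1 from 68.7, 68.9 and 68.1 to 63.3, 60.6 and 57.7 (−0.18 ± 0.05, limma adjusted p = 0.00819). The groups of both genes were apart.

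Aurkb and Racgap1 were the members called higher. Aurkb had 14.6, 14.5 and 15.04 RPKM in WT NT and 18.3, 17.9 and 17.2 in KO NT (0.26 ± 0.05, limma adjusted p = 0.00069), and Racgap1 had 20.7 in all 3 WT libraries and 24.4, 24.0 and 23.4 in KO (0.20 ± 0.04, limma adjusted p = 0.00049). Every KO library of these 2 genes was above every WT library. Racgap1 had fallen in KO in DMSO, so Racgap1 and Ccnb2 had opposite calls in DMSO and with NT siRNA. Plk1 had 23.3, 26.4 and 25.4 RPKM in WT and 25.0, 29.1 and 25.8 in KO, which overlapped (0.08 ± 0.07, limma adjusted p = 0.284), and Gtse1, the largest fall in DMSO, was level (0.02 ± 0.05, limma adjusted p = 0.769). The other members that did not pass were Aurka, Bub1b, Ube2c, Birc5, Kif20a and Cdca3. The 20 members lower in KO DMSO and the 30 lower in KO NT share 16 genes. That is 16 of 20 of the first list, near the 30 of all 40 members lower in KO NT. It is 16 of 30 of the second, near the 20 of all 40 lower in KO DMSO. These 2 comparisons share no library.

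The fall in KO NT was larger in members with longer genes. Across the 40 members the log2 difference and the log of the gene's counted length had Pearson's r = −0.461 and Spearman's rho = −0.478, against −0.105 and −0.137 across all genes tested. Plk1, Cdc20 and Cdc25c, with short transcripts, had small differences, and Cenpe, Cenpf and Mki67, with long ones, large falls. Other members went against this. Ccnb2, Ndc80 and Ckap2 are short and fell by 0.46, 0.43 and 0.85, and Racgap1 is long and rose. In DMSO the same relation gave 0.092 and 0.098. KO against WT with H2AZ siRNA gave −0.374 and −0.441. The relation was not limited to KO against WT. H2AZ siRNA against NT siRNA gave −0.434 and −0.454 across the members in WT (all genes −0.022 and −0.030). In KO it gave 0.021 and 0.109. The WT NT libraries enter both KO against WT with NT siRNA and the comparison within WT. Genes are not independent replicates and share these libraries, so this is a description with no test. The 7SL RNA made up 11.8% to 13.4% of the reads in the WT and 15.1% to 18.2% in the KO libraries of the siRNA table, and 0.927% to 1.65% in the DAC table; its part in the length relation was not tested.

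**Figure D5:**
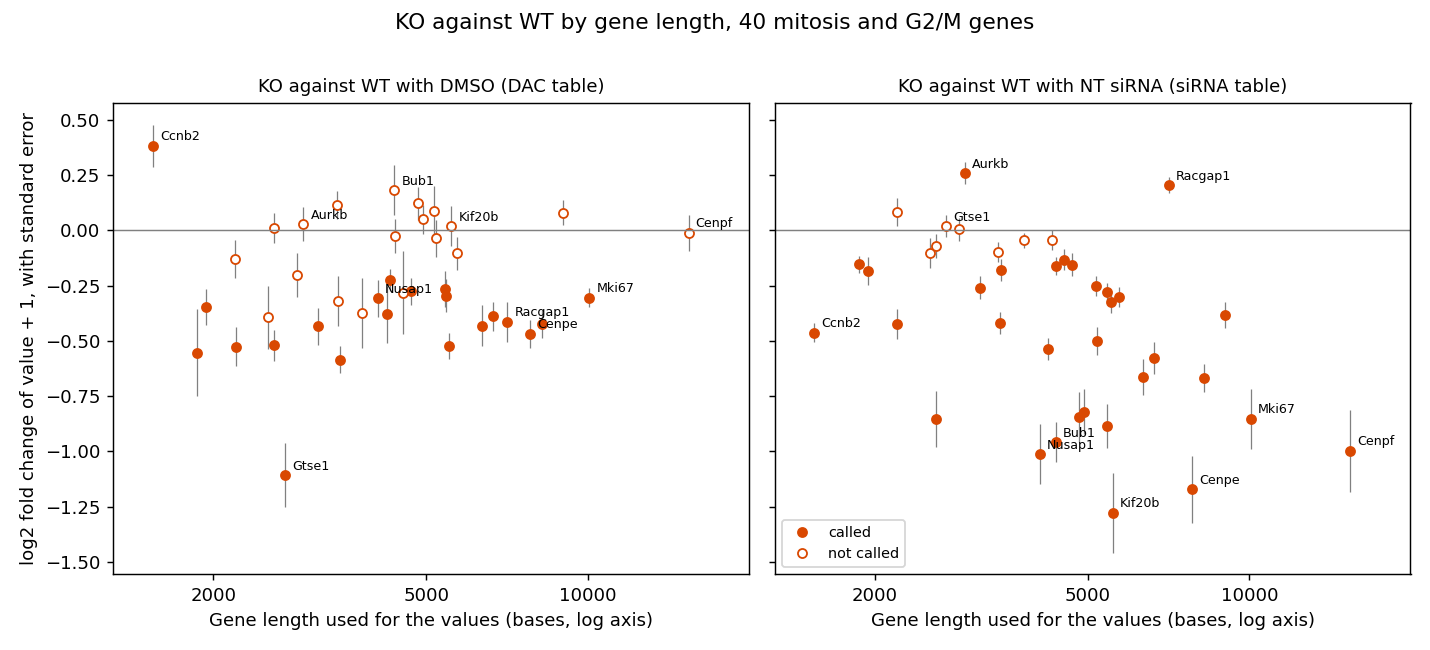
Log2 difference of KO against WT (vertical axis) by the gene's counted length in bases (horizontal axis, log scale) for the 40 members, in DMSO (one panel) and with NT siRNA (the other). The points slope down with length with NT siRNA (r = −0.461) and do not in DMSO (r = 0.092).

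With H2AZ siRNA in both genotypes, 27 members were lower in KO, 2 were higher and 11 passed in neither direction, where 42.7% of all genes tested were lower and 20.2% higher. The medians were −0.22 for the members and −0.12 for all genes, and after centring on the median of all genes 17 were lower and 8 higher, where 31% of all genes were lower and 31.9% higher. Of the members called in either fit, Cdc20, Kif2c and Birc5 turned from below 0 to above it. Without WT NT 1 and KO NT 1, 29 were lower and 2 higher. The largest falls were in Nusap1 (17.4, 14.3 and 17.9 RPKM in WT H2AZ, 7.51, 7.65 and 7.60 in KO H2AZ, −1.02 ± 0.14, limma adjusted p = 5.8e-05), Kif20b (14.2, 11.4 and 15.4 in WT, 6.74, 6.87 and 6.85 in KO, −0.90 ± 0.18, limma adjusted p = 0.00114) and Bub1 (17.4, 15.8 and 18.5 in WT, 8.84, 9.55 and 9.77 in KO, −0.81 ± 0.09, limma adjusted p = 1.8e-05). The groups did not overlap in any of the 3. Mki67 fell by 0.50 ± 0.14, Ccnb1 by 0.37 ± 0.05 and Top2a by 0.20 ± 0.06. Cdk1 fell by 0.14 ± 0.05 (limma adjusted p = 0.0309), a call lost when any of 4 libraries was left out. Racgap1 (18.5, 17.9 and 17.9 RPKM in WT, 20.2, 20.1 and 20.9 in KO, 0.16 ± 0.04, limma adjusted p = 0.00224) and Aurkb (15.8, 15.8 and 14.9 in WT, 16.6, 18.6 and 17.5 in KO, 0.17 ± 0.05, limma adjusted p = 0.0108) were again the higher ones, and the call of Aurkb was lost without KO H2AZ 2 (0.13, limma adjusted p = 0.0514). Plk1 did not pass (0.07 ± 0.07). Leaving out each library in turn kept 23 of the 29 calls. The mesothelial markers summed to 22.1 to 23.5 RPKM in WT and 181 to 221 in KO libraries of this table, with Wt1 and Upk1b at 0 in every WT library. The fibroblast markers summed to 1954 to 2036 RPKM in WT NT, 1969 to 1995 in WT H2AZ, 2623 to 2738 in KO NT and 2498 to 2703 in KO H2AZ. Of these 10, 6 were called higher and 2, Fn1 and P4hb, lower in KO with either siRNA. S100a4 made up much of the sums, at 549.8 to 619.8 RPKM in WT NT and 1105 to 1201 in KO NT. The part of either marker list in the differences was not tested.

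Within each genotype, libraries with H2AZ siRNA were set against those with NT siRNA. In WT, 5 members fell and 1 rose, where 10.4% of all genes tested fell and 4.88% rose, and in KO 3 fell and 5 rose, where 19% fell and 6.56% rose (limma, 3 libraries per group). The medians were −0.12 in WT and 0.03 in KO, beside −0.03 and −0.06 for all genes. The count in WT is near the share of all genes. After centring on the median of all genes, 6 rose and 1 fell in KO, where 13.5% of all genes rose and 13.3% fell. Without WT NT 1 and KO NT 1, 3 fell and 1 rose in WT, and 1 fell and 8 rose in KO. Of these 9 in KO, 5 were among the 8 found with all libraries. Gtse1 rose in both: 18.1, 19.1 and 19.6 RPKM in WT NT and 27.9, 27.2 and 26.5 in WT H2AZ (0.50 ± 0.05, limma adjusted p = 0.00017), and 19.9, 19.6 and 18.1 in KO NT and 28.9, 28.6 and 26.4 in KO H2AZ (0.52 ± 0.05, limma adjusted p = 9.3e-05). Each library with H2AZ siRNA was above each with NT siRNA in its genotype. Racgap1 fell by 0.18 ± 0.04 in WT and 0.22 ± 0.04 in KO, and Bub1b by 0.21 ± 0.04 and 0.15 ± 0.04, and Ect2 by 0.21 ± 0.06 and 0.19 ± 0.06. Cdca8 (−0.16 ± 0.04) and Cdca3, a mitotic entry factor (−0.18 ± 0.05), also fell in WT. In KO their values were −0.11 ± 0.04 and −0.12 ± 0.05, which did not pass, and the differences between genotypes were not called.

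In KO, Ckap2 rose from 21.6, 19.1 and 16.3 to 36.2, 28.8 and 28.9 RPKM (0.69 ± 0.13, limma adjusted p = 0.00257), the largest change of a member with H2AZ siRNA, and in WT it had 41.7, 30.9 and 33.0 with NT siRNA and 43.0, 38.2 and 42.8 with H2AZ siRNA (0.23 ± 0.13, limma adjusted p = 0.242). The KO groups were apart and the WT groups overlapped. Prc1 rose by 0.21 ± 0.06, Ccnb1 by 0.16 ± 0.05 and Kif20a by 0.10 ± 0.03 in KO, calls that were each lost without some of the libraries. The remaining named members, Cdk1, Plk1, Aurkb, Mki67 and Top2a, did not pass in either genotype, with log2 changes between −0.32 (Mki67 in WT) and 0.07 (Aurkb in WT). In WT, 3 of 6 calls (Gtse1, Bub1b and Racgap1) were kept whichever library was left out, and 3 calls were left without WT NT 1 or any of the WT H2AZ libraries. In KO, 3 of 8 (Ckap2, Gtse1 and Racgap1) were kept, and the count was 3 without KO NT 2, 4 without KO NT 3, KO H2AZ 2 or KO H2AZ 3, and 5 without WT NT 2, WT H2AZ 1 or KO H2AZ 1. With the replicate number as a block within the KO libraries, whose same-numbered libraries deviated together, 5 members passed in KO, 4 higher and 1 lower.

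The response to H2AZ siRNA differed between genotypes for 0 of the 40 members by limma at adjusted p under 0.05 and for 0 by limma-voom on recovered reads. Of all genes tested, 0.00789% were called with the more positive change in KO and 0% with the less positive. That share is 1 gene, H2afz itself, whose fall was smaller in KO (interaction 0.723). At an unadjusted p under 0.05 there were 6: Ccnb1, Cenpe, Kif4, Ckap2, Dlgap5 and Prc1, each with the larger value in KO. The share of all genes at that threshold was not counted, so these 6 are not a result about the members. Without WT NT 1 and KO NT 1 the count was again 0. The interaction of Ccnb1 was 0.17 ± 0.07. The medians were 0.07 for the members and −0.03 for all genes.

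Other genes of mitosis, which are outside the 40, were counted from a list of 115 tested genes of the DAC table. In KO DMSO, 32 were lower than in WT and 9 higher, where 22.9% of all genes tested were lower and 19.6% higher. Psrc1, a microtubule protein and p53 target (−1.31), and Mxd3 (−1.18) were at the low end. Anapc1 (0.57) and Cdc26 (0.53), subunits of the anaphase ubiquitin ligase, were at the high end. DAC raised 24 and lowered 5 in WT (Psrc1 0.76, Cep55 0.54, Cenpw −0.63, Cenpp −0.56), where 14.5% of all genes tested rose and 13.8% fell. It raised 64 and lowered 5 in KO (Psrc1 1.97, Haspin 0.95, Cdc26 −0.69, Anapc1 −0.50), where 23.7% rose and 21.6% fell. The interaction was called higher for 21 and lower for 2 (Psrc1 1.22, Cenpw 1.01, Anapc1 −0.40, Wapl −0.32), beside 12.4% and 11.7% of all genes tested. With DAC, 12 were higher and 5 lower in KO than in WT (Mad2l1 0.49, Ncapd2 0.34, Cenpp −0.61, Cdc16 −0.26), beside 11.1% and 11.6% of all genes tested. Of 114 tested in the siRNA table, KO was lower than WT in 68 and higher in 20 with NT siRNA (Cenpm 0.73, Mxd3 0.63, Smc2 −1.56, Shcbp1 −1.44), beside 40.4% and 23.7% of all genes tested. With H2AZ siRNA it was lower in 66 and higher in 17 (Pkmyt1 0.73, Mxd3 0.53, Shcbp1 −1.38, Smc2 −1.27), beside 42.7% and 20.2%. H2AZ siRNA raised 2 and lowered 11 in WT (Psrc1 0.56, Cdc23 0.15, Trip13 −0.55, Cenpw −0.37), where 4.88% of all genes tested rose and 10.4% fell. In KO it raised 5 and lowered 17 (Psrc1 0.41, Kpna2 0.27, Trip13 −0.53, Stag2 −0.47), where 6.56% rose and 19% fell. None of the counts of H2AZ siRNA against NT siRNA within WT or within KO was above the share of all genes.

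S-phase genes, whose products copy DNA, were counted beside the mitotic set. The median level of 58 such genes was 12.7 FPKM with DMSO and 12.3 with DAC in WT cells, 11.6 with DMSO and 12.97 with DAC in KO cells, and 13.6, 13.1, 13.2 and 13.5 RPKM in WT NT, WT H2AZ, KO NT and KO H2AZ. Of the 58, 7 were higher and 8 lower in KO DMSO, beside 19.6% and 22.9% of all genes tested. DAC in KO raised 11 and lowered 9, beside 23.7% and 21.6%. The same 58 gave 5 higher and 9 lower with DAC in WT, beside 14.5% and 13.8% of all genes. In KO against WT with NT siRNA, 21 were higher and 21 lower, beside 23.7% and 40.4%.

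Of the regulators, Foxm1 had 25.8 and 25.4 FPKM with DMSO and 31.3, 31.3 and 30.3 with DAC in WT cells, and 26.0 and 26.6 with DMSO and 40.2, 40.8 and 41.5 with DAC in KO cells. It rose with DAC by 0.27 ± 0.04 in WT and by 0.62 ± 0.04 in KO, with an interaction of 0.35 ± 0.06 (limma adjusted p = 0.00315). Mybl2, which encodes B-Myb, rose with DAC in KO by 1.03 ± 0.13 from 2.85 and 3.16 to 6.41, 7.79 and 7.37 FPKM (interaction 0.65 ± 0.18, limma adjusted p = 0.0315). Cdkn1a, the p21 inhibitor of cyclin-dependent kinases and a p53 target, was at 41.9 and 47.7 FPKM in WT DMSO, at 9.76 and 9.39 in KO DMSO (−2.11 ± 0.14), at 109, 112 and 82.7 in WT DAC (1.15 ± 0.13) and at 65.0, 75.3 and 71.3 in KO DAC (2.75 ± 0.13), and it rose by 0.95 ± 0.06 in WT and by 1.05 ± 0.06 in KO with H2AZ siRNA. The 4 groups of the DAC table did not overlap for Cdkn1a, with KO DMSO the lowest and WT DAC the highest (KO against WT with DAC, −0.50 ± 0.12, limma adjusted p = 0.0148).

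The members were also set out by whether any of their promoter windows holds the letters TTTGAA. With DAC in KO the median change was 0.47 in the 26 with the letters, of which 23 were called higher and 1 (Ccnb2) lower, and 0.55 in the 8 without, of which 7 were called higher and 0 lower. For KO against WT the medians were −0.25 and −0.34 in DMSO, and −0.36 and −0.60 with NT siRNA. The 8 without the letters were Ccnb1, Nek2, Bub1, Nuf2, Cenpe, Birc5, Nusap1 and Gtse1, so that the gene with the largest rise with DAC is one of them.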

How the data were processed

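The authors deposited 1 table of FPKM values (10 libraries) and 1 table of RPKM values (12 libraries), with Ensembl gene IDs. The submitters' processing notes name STAR, Bowtie2, deepTools and mm10. The sources used here give neither their roles nor the counting program, annotation or strand setting, so reads of a gene and an overlapping antisense gene cannot be told apart. The libraries were made with a stranded total RNA kit, per the labels' protocols. Of 53 samples, the 31 CUT&Tag samples were not analysed here. Of the 43432 genes in each table, 42462 matched a symbol.

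The values were fitted as log2(value + 1) with limma 3.58.1 in R 4.3.3, with all groups of a table in one fit and an intensity trend. Genes with a value of 1 or more in 2 or more libraries of the DAC table, or in 3 or more of the siRNA table, were tested. Adjusted p-values (Benjamini-Hochberg) cover all genes tested, and a call is an adjusted p under 0.05. Fold changes on this scale understate the change of low genes. Tables were made with Python 3.11.15, numpy 2.4.6, pandas 2.3.3 and matplotlib 3.10.9, and the fit was tested on simulated data. The low values of both tables are whole multiples of what 1 read is worth for a gene, so that reads, gene lengths and totals could be recovered for all 35023 genes above 0 (each value within 0.01 of a whole read). These reads give the depth and were used for limma-voom as an alternative. The range of depths is given with the results. Promoter letters were searched on both strands of the RefSeq windows.

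The 40 genes, their roles and the other lists were chosen with earlier results of these data known. In each comparison full values are given for Ccnb1, Cdk1, Plk1, Aurkb, Mki67 and Top2a, for up to 3 called members with the largest rise and 3 with the largest fall, for the regulators Foxm1, Mybl2 and Cdkn1a, and for up to 2 genes in each direction from the list of other mitosis genes. Other members were added by role. Replicate numbers come from the labels, which do not say what they mark. Deviations of same-numbered KO NT and KO H2AZ libraries correlated at 0.156, 0.144 and 0.27. Those of WT NT and KO NT gave 0.319, 0.109 and 0.023, and those of WT NT and WT H2AZ −0.003, 0.013 and −0.089. The numbers were taken to pair the KO NT and KO H2AZ libraries only. That choice was not tested, and WT NT 1 and KO NT 1 had a larger value than any of those pairs. In the DAC table same-numbered libraries gave −0.225 to 0.126. Alternatives were another pseudocount (0.1), other filters on low values, centring on the median gene, a minimum of 2-fold, the 2 groups alone, the replicate block and leaving out each library. Recovered reads, both libraries that stood apart left out and the block within KO were chosen after seeing the data.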

Additional observations from a re-analysis of the deposited data

Results flagged for a closer look

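In 16 of the 40 members the log2 change with decitabine differed between genotypes by limma's interaction term, each time with the more positive change in KO: Gtse1 (0.824), Plk1 (0.716), Kif4 (0.667), Aurka (0.608), Hmmr (0.534), Racgap1 (0.505), Anln (0.497), Cdk1 (0.468), Tpx2 (0.467), Ckap2 (0.457), Prc1 (0.444), Cenpe (0.442), Ckap2l (0.397), Mki67 (0.363), Ndc80 (0.361) and Bub1b (0.247). The change in WT passed on its own for Gtse1, Plk1, Anln, Ckap2 and Cenpe and not for the others, among which Bub1b, Ckap2l and Kif4 had values below 0 in WT. The KO DMSO libraries, which enter each of these values, carried the high mesothelial marker sums given above, and their part was not tested.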

How the results depend on the processing

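With a minimum of 2-fold, the members called were 1 for KO against WT in DMSO (Gtse1), 0 with DAC, 3 with NT siRNA and 1 with H2AZ siRNA, 0 for DAC in WT and 2 in KO (Gtse1 and Plk1), 0 for H2AZ siRNA in WT and in KO, and 0 for the interaction with DAC. With the replicate block, 4 members passed for KO against WT with DAC and 7 for DAC in WT, against 9 and 12 without it; the numbers are not shown to pair those libraries, and the block within KO gave 5 for H2AZ siRNA in KO against 8. With the 2 groups alone the counts were 5 for KO against WT with DAC, 6 for DAC in WT and 3 for H2AZ siRNA in KO, and with no filter 5 for H2AZ siRNA in KO. Without both libraries that stood apart, 25 members passed for DAC in WT. Leaving out each library in turn gave 14 to 25 members for KO against WT in DMSO, 4 to 9 with DAC, 29 to 33 with NT siRNA and 24 to 29 with H2AZ siRNA, 4 to 16 for DAC in WT, 27 to 37 in KO, 9 to 18 for the interaction, 3 to 8 for H2AZ siRNA in WT and 3 to 9 in KO. Centring on the median gene turned Cdc20 (0.032), Birc5 (0.111) and Kif2c (0.029) above 0 in KO against WT with H2AZ siRNA, where the median of all genes was −0.121, the 3 values called in either fit whose sign changed under an alternative. Of all member values under the alternatives, 7087 kept their side of the threshold, 353 no longer passed and 117 newly passed. Values called in neither fit are among the 7087 whether or not their sign changed. Limma-voom on recovered reads gave 24, 9, 14, 36 and 17 members for KO against WT in DMSO and with DAC, DAC in WT and in KO and their interaction. Beyond the settings' own construction, the cause of these changes was not tested. Each DMSO group has 2 libraries, which limits the precision of its values.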
